A study of Mus musculus with 4 samples.

Results

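The Z-disc genes described here are 10 genes whose proteins sit at the borders of the sarcomere: Actn2, Ldb3, Myoz2, Tcap, Csrp3, Nebl, Xirp1, Xirp2, Synpo2l and Pdlim5. They were chosen by name, but with earlier results of these data known, so the choice was not blind to the values. All 10 were found among the 20701 gene symbols of the count table, where they have 28 of 31507 transcript entries. For each symbol the entry with the most reads over the 4 libraries was used. The RNA came from cardiac progenitor cells (CPCs) differentiated in culture from mouse E14 Tg(Nkx2-5-EmGFP) embryonic stem cells, which carry a green fluorescent reporter of the cardiac transcription factor gene Nkx2-5. Reporter-positive CPCs were sorted on day 5. There were 2 control libraries and 2 Isl1-/- libraries, which per the study's methods came from different stem cell clones. The Isl1-/- clones were made by CRISPR/Cas9 editing. All 4 libraries thus share the reporter line, the day and the sort, and a group is represented by at most 2 clones.

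The sarcomere is the repeating contractile unit of striated muscle, and the Z-disc is the lattice at each of its ends in which actin filaments of opposite direction are held together. Alpha-actinin forms the cross-links of this lattice, PDZ-LIM proteins bind alpha-actinin through their PDZ domain, and further proteins tie the lattice to titin, to calcineurin signalling and to the cell membrane. The genes are switched on as cardiac progenitors become beating cardiomyocytes, and mutations in several of them are known in inherited cardiomyopathies. Isl1 encodes a transcription factor with a LIM and a homeodomain that marks second heart field progenitors, and the comparison asks what its loss does to the progenitors' transcripts.

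Levels are given as counts and as counts-per-million (CPM), scaled by each library's effective size, with the SD of 2 libraries. The libraries held between 8821536 and 13186103 counts over 1 entry per gene. The targeted gene Isl1 (chromosome 13, 117088478 to 117099896) went from 35.4 ± 0.421 to 1.69 ± 0.548 CPM (SD, n = 2 each). Nkx2-5, the gene of the sort reporter, was at 20.5 ± 0.925 and 4.55 ± 0.302 CPM (SD, n = 2 each). It was thus itself called lower in Isl1-/- CPCs (log2 fold change -2.16, edgeR adjusted p 0.00687). Whether the sorted cells of the groups were equivalent was not tested. The control libraries were closer to each other than the Isl1-/- libraries, with a biological coefficient of variation of 1.26% against 16.4%. The control libraries differed only slightly more than counting error (chi-square per degree of freedom 1.14), so the control SD may hold less than the spread between clones, and each p-value rests on the spread between these samples, which may be partly technical. Of 12715 genes tested with edgeR's quasi-likelihood test, 1.94% were called lower and 0.511% higher in Isl1-/- CPCs at an adjusted p under 0.05.

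Transcripts of 6 Z-disc genes fell (6 of 7 tested, against 2.45% of all tested genes called in either direction) in Isl1-/- CPCs: Actn2, Ldb3, Nebl, Synpo2l, Csrp3 and Xirp1. Without Pdlim5, the listed genes summed to 123 and 125 CPM in control and to 9.30 and 7.37 CPM in Isl1-/- CPCs. Pdlim5 made up more than all the others together and did not pass the test. Tcap had too few reads to be tested, and no read of Myoz2 or Xirp2 was counted in any library. The median log2 fold change of the 7 tested genes was -3.87, and it was -0.0025 over all tested genes. Csrp3 and Xirp1 entered the test through the control libraries alone, since their Isl1-/- levels were under the filter. With Isl1-/- levels this low, they could be tested only because their control levels were higher. The other 5 tested genes passed the filter in both groups. In all 7 both Isl1-/- libraries lay below both control libraries, which was also so for 29.0% of all tested genes. DESeq2 called the same 6 genes lower, against 2.56% of the genes it tested, and by the criteria of the study's methods in DESeq2 (an unadjusted p under 0.05 and a log2 fold change beyond 0.58) Tcap was added, against 4.57%. Leaving out either control library kept Nebl and Xirp1 past the threshold and lost Actn2, Ldb3, Synpo2l and Csrp3, whose fold changes stayed between -5.16 and -2.73 in those fits.

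**Figure D1:**
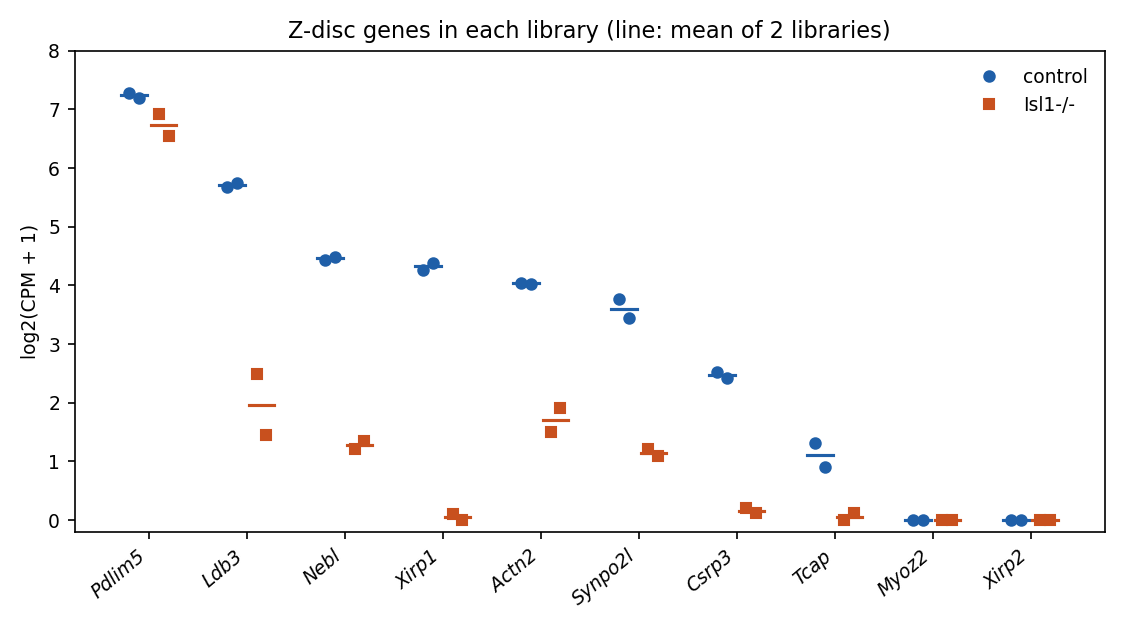
Level of each of the 10 Z-disc genes in each library, as log2(CPM + 1), with the control libraries as circles, the Isl1-/- libraries as squares and the mean of 2 libraries as a line. The groups lie apart for the 8 genes with reads, narrowly for Pdlim5, and Myoz2 and Xirp2 are at 0 in all 4 libraries.

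Actn2 encodes the sarcomeric alpha-actinin, the main cross-linker of actin in the Z-disc (chromosome 13, 12361693 to 12433027, minus strand). Control replicates 1 and 2 gave 137 and 140 counts, and the deeper Isl1-/- libraries gave 24 and 32. Its level was 15.6 and 15.3 CPM in control and 1.84 and 2.78 CPM in Isl1-/- CPCs. Both Isl1-/- libraries were thus well below both control libraries, and replicate 2 kept more of the transcript than replicate 1. The decrease was 6.70-fold, a log2 fold change of -2.74 with an SE of 0.234 (edgeR adjusted p 0.0110).

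Ldb3 encodes Cypher, also called ZASP, a PDZ-LIM protein that binds alpha-actinin (chromosome 14, 35339885 to 35401867, minus strand). It was the most abundant in control after Pdlim5, with 442 and 483 counts, against 60 and 20 in Isl1-/- CPCs. These were 50.2 and 52.8 CPM in control and 4.61 and 1.74 CPM in Isl1-/- CPCs. The Isl1-/- libraries differed 2.66-fold from each other, in the direction opposite to Actn2, but both lay far below control. On the log2 scale the difference was -3.99 ± 0.355 (SE; edgeR adjusted p 0.0128), or 15.9-fold.

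Nebl encodes nebulette, a nebulin-related protein of the cardiac Z-disc that binds actin and alpha-actinin (chromosome 2, 17265536 to 17653091, minus strand). Nebl was counted as 1 entry of 2971 bases, and which form of the protein this entry encodes was not examined. Its 182 and 196 control counts stood against 17 and 18 in Isl1-/- CPCs. The level was 20.7 and 21.4 CPM in control and 1.31 and 1.56 CPM in Isl1-/- CPCs. Here the 2 libraries of each group were close together. Its log2 fold change, -3.87 ± 0.187 (SE; edgeR adjusted p 0.00276), was past the threshold in all 12 alternative fits.

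Synpo2l encodes CHAP, a cytoskeletal protein of heart and skeletal muscle Z-discs related to synaptopodin (chromosome 14, 21478168 to 21487576, minus strand). Counts were 111 and 90 in control, and 17 and 13 remained without Isl1. In CPM the control libraries were at 12.6 and 9.85 and the Isl1-/- libraries at 1.31 and 1.13. The 2 control values differed more than for the other tested genes, and neither came near the Isl1-/- values. This was a 9.11-fold decrease, or -3.19 ± 0.256 on the log2 scale (SE; edgeR adjusted p 0.00901).

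Csrp3 encodes muscle LIM protein, which binds alpha-actinin and telethonin (chromosome 7, 56085768 to 56103400, minus strand). Its counts were 42 and 40 in control and 2 and 1 in Isl1-/- CPCs, or 4.77 and 4.38 CPM against 0.154 and 0.0868 CPM. Each Isl1-/- library was under the floor of 3 counts, so the size of the decrease is poorly fixed. The ratio of control to Isl1-/- was 37.4, with a 95% exact interval of 12.3 to 185 that covers counting error only. The fitted log2 value was -5.10 ± 0.409 (SE; edgeR adjusted p 0.00901).

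Xirp1 encodes Xin, an actin-binding repeat protein found at the adhesion sites between heart muscle cells (chromosome 9, 119922873 to 119932716, minus strand). Control replicates 1 and 2 gave 160 and 182 counts, or 18.2 and 19.9 CPM, and in the Isl1-/- libraries 1 count and 0 counts were left. The ratio of control to Isl1-/- was 468 with a 95% exact counting interval of 83.3 to 18519. The edgeR adjusted p was 0.00276, and the fitted log2 fold change of -8.50 depends on how a count of 0 is treated. In control its CPM were near those of Nebl, but in Isl1-/- CPCs it was almost gone while Nebl was still counted 35 times.

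Tcap encodes telethonin, which caps the ends of titin in the Z-disc (chromosome 11, 98245125 to 98246267, plus strand). Its counts were 13 and 8 in control, and 0 and 1 in Isl1-/- CPCs, too few for the filter. The ratio of control to Isl1-/- was 28.7, with an exact counting interval of 4.62 to 1187. In DESeq2, which tested it without that filter, the adjusted p was 0.13. Myoz2, which encodes the calcineurin-binding protein calsarcin-1 of heart and slow muscle (chromosome 3, 122709124 to 122737908), and Xirp2, the second Xin repeat gene (chromosome 2, 67284059 to 67364671), had 0 counts in every library. A count of 0 allows a level of up to 0.341 and 0.328 CPM in the control libraries and 0.231 and 0.260 CPM in the Isl1-/- libraries, so that a change in these genes was not detectable at this depth.

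Pdlim5 encodes Enigma homolog, a PDZ-LIM protein of the Z-disc that is also made in many tissues outside muscle (chromosome 3, 141903568 to 142058630, minus strand). Read counts were 1364 and 1332 for control, with 1557 and 1071 for Isl1-/- CPCs. Scaled to library size these were 155 and 146 CPM in control and 120 and 92.9 CPM in Isl1-/- CPCs. The Isl1-/- libraries were both below control, but the gap to the nearer control was about as wide as that between the Isl1-/- libraries themselves. The log2 fold change was -0.50 (SE 0.131) with a 95% interval of -0.83 to -0.17, and the edgeR adjusted p was 0.118. With either Isl1-/- library left out it passed, at -0.69 without replicate 1 and -0.33 without replicate 2, but the spread then came from the close control pair alone. Its interval did not reach that of any of the 6 genes that fell, the nearest of which ended at -2.15 for Actn2.

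The 9 transcript entries of Pdlim5 fell into 2 classes by length. The 5 entries of 4682 to 5075 bases had 1253 to 1364 counts in a control library, and the 4 entries of 1985 to 2405 bases had 117 to 210. In a fit over all entries the long entries had log2 fold changes of -0.49 to -0.48 (edgeR adjusted p 0.12 to 0.126), and the short entries of -0.93 to -0.79 (edgeR adjusted p 0.0522 to 0.0846). No entry passed the threshold. For each 100 counts of the entry used above, the short entries had 8.58 to 15.8 counts in the control libraries and 6.17 to 12.7 in the Isl1-/- libraries. The ranges of the groups overlap across entries, while each short entry on its own had a lower share in both Isl1-/- libraries than in both control libraries. Entries of 1 gene share exons and hence reads, so these values are not independent of each other.

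The entries of the other genes differed less. The 7 Ldb3 entries, 5 of 4720 to 5024 bases and 2 of 1493 to 1612 bases, had log2 fold changes of -3.99 to -3.65 and each passed the threshold over all entries (edgeR adjusted p 0.00787 to 0.0143). The 3 Synpo2l entries lay between -3.18 and -3.16, and the 2 Csrp3 entries had the same counts. Actn2, Nebl, Xirp1, Tcap and Myoz2 had 1 entry each. No exon of the 10 genes overlapped an exon of another protein-coding gene in the annotation, although the counting did not use strand.

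The order of the genes by size of decrease can be read only in part. The 95% intervals of the log2 fold changes were -3.34 to -2.15 for Actn2, -3.84 to -2.54 for Synpo2l, -4.34 to -3.40 for Nebl, -4.89 to -3.09 for Ldb3 and -6.13 to -4.06 for Csrp3. Neighbours in this order overlapped, while those of Actn2 and Nebl did not. The interval of Csrp3 also did not reach those of Actn2 and Synpo2l. The share of the control mean left in Isl1-/- CPCs was 70.7% for Pdlim5, 15.0% for Actn2, 10.8% for Synpo2l, 6.81% for Nebl and 6.16% for Ldb3. For Tcap, Csrp3 and Xirp1, with 1, 3 and 1 counts in the Isl1-/- libraries together, the counting intervals given above overlap. The edgeR interval of Xirp1, -9.56 to -7.45, did not reach that of Csrp3, but it depends on how a count of 0 is treated. No order was therefore read among these genes.

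To compare levels between genes, CPM were divided by transcript length in kilobases (RPKM). In control the order was Pdlim5 at 30.0 ± 1.28 RPKM, Ldb3 at 10.3 ± 0.377, Nebl at 7.09 ± 0.187, Actn2 at 5.21 ± 0.0555, Csrp3 at 5.02 ± 0.303, Xirp1 at 3.26 ± 0.212, Synpo2l at 3.04 ± 0.527 and Tcap at 1.25 ± 0.450 RPKM (SD, n = 2 each). The library values of Actn2 and Csrp3 overlapped, as did those of Xirp1 and Synpo2l. In Isl1-/- CPCs Pdlim5 was still first at 21.2 ± 3.78 RPKM, and the next were Actn2 at 0.780 ± 0.222 RPKM and Ldb3 at 0.632 ± 0.405 RPKM, whose libraries overlapped. Ldb3 was thus ahead of Actn2 in both control libraries, but not in both Isl1-/- libraries.

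Most of the 10 genes belong to families in which some other members work outside striated muscle. The paralogues, with muscle genes such as Neb among them, were compared on the same scales. Actn1 and Actn4, the alpha-actinins of non-muscle cells, were far above Actn2 in control, at 216 ± 1.08 and 146 ± 1.84 RPKM (SD, n = 2 each). Actn4, whose exons overlap those of Capn12, had a log2 fold change of 0.034 (95% interval -0.22 to 0.28, edgeR adjusted p 0.868). Actn3, the remaining alpha-actinin, was at 4.54 and 6.35 CPM in control and 4.54 and 5.47 CPM in Isl1-/- CPCs (edgeR adjusted p 0.801). Actn1 was at 799 and 804 CPM in control and at 1160 and 919 CPM in Isl1-/- CPCs, higher in both, and did not pass the test (log2 fold change 0.38 with a 95% interval of 0.066 to 0.68, edgeR adjusted p 0.164). Actn1 lies on chromosome 12, and the 65 tested genes within 5 Mb of it had a median log2 fold change of 0.39, with 54 of them above 0. The same median lay between -0.15 and 0.05 around the 10 Z-disc genes. Actn2 took 1.43% and 1.39% of the alpha-actinin RPKM in control and 0.131% and 0.242% in Isl1-/- CPCs, while the summed family level was 367 and 371 RPKM in control and 476 and 387 RPKM in Isl1-/- CPCs.

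The remaining families were compared in the same way. Csrp1 and Csrp2, the cysteine-rich LIM proteins (CRP) of smooth muscle and other tissues, had log2 fold changes of -0.49 (95% interval -1.28 to 0.31) and -0.32 (95% interval -0.75 to 0.10), and Csrp3 was 0.605% and 0.551% of the family's RPKM in control. Lasp1, the broadly made relative of nebulette, had a log2 fold change of 0.075 (95% interval -0.25 to 0.40) and outweighed Nebl in control, where Nebl held 9.71% and 10.5% of the family's RPKM. In Isl1-/- CPCs Nebl held 0.587% and 0.893%. Neb, the nebulin of skeletal muscle, was at 3.52 and 4.16 CPM in control and 2.77 and 2.86 CPM in Isl1-/- CPCs (edgeR adjusted p 0.325). Of the PDZ-LIM genes besides Ldb3 and Pdlim5, the 5 others tested (Pdlim1, Pdlim2, Pdlim3, Pdlim4 and Pdlim7) had log2 fold changes between -0.48 and 0.58 and none passed. Pdlim7, the Enigma gene, was the largest of them at 221 and 225 CPM in control and 269 and 159 CPM in Isl1-/- CPCs.

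The synaptopodin family differed from the rest in that a paralogue fell too. Synpo2, which encodes myopodin, a Z-disc protein of muscle, went from 10.2 and 10.7 CPM to 1.31 and 0.521 CPM (log2 -3.47 ± 0.367, edgeR adjusted p 0.0200), although it passed the filter in control only. Synpo, known from kidney podocytes and neurons, had a log2 fold change of 0.0030 (95% interval -0.79 to 0.79). Myoz1 and Myoz3, the relatives of Myoz2, had at most 5 counts in a library. These family contrasts are descriptions, since with 2 libraries a group an exact permutation test of a within-library ratio cannot give a two-sided p under 0.333.

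**Figure D2:**
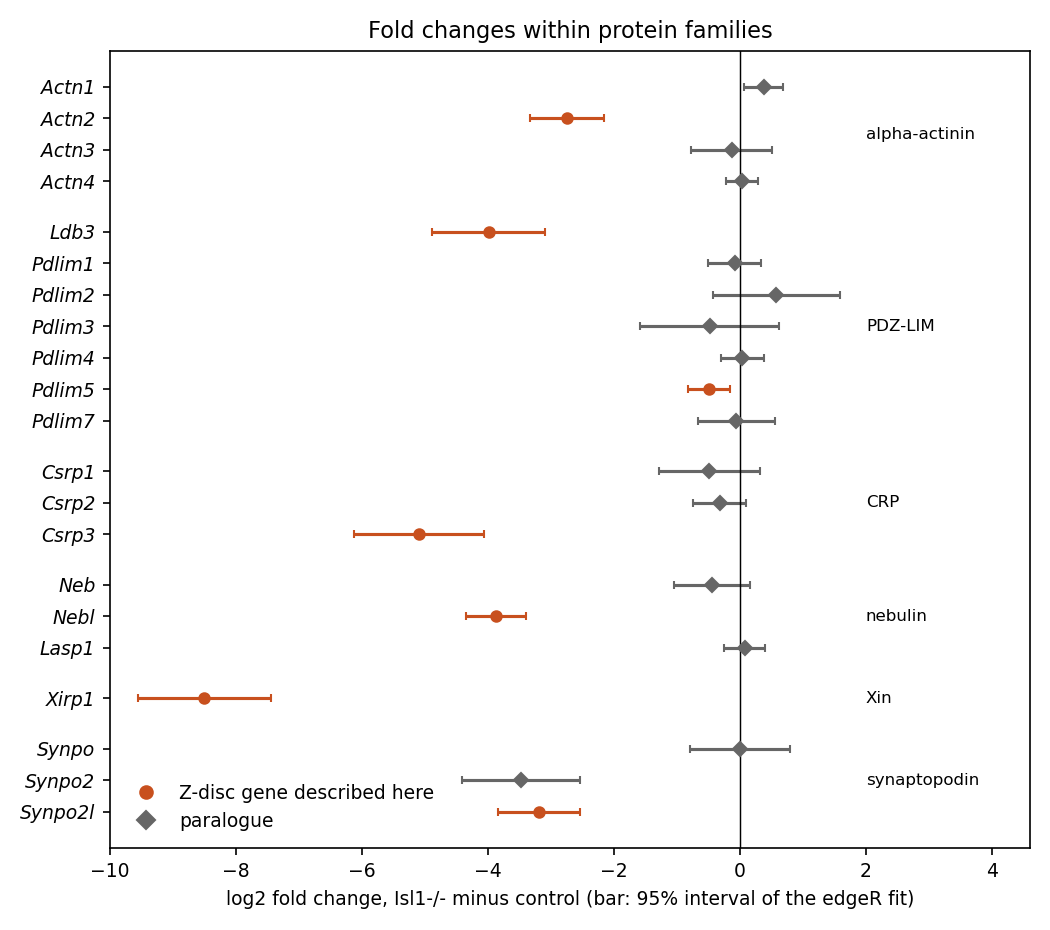
Log2 fold change of each tested gene of 6 protein families, Isl1-/- minus control, with its 95% interval from the edgeR fit; circles are the Z-disc genes described here and diamonds their paralogues. The circles of Actn2, Ldb3, Csrp3, Nebl, Xirp1 and Synpo2l lie at -2.74 or lower, and among the diamonds Synpo2 alone does; the position of Xirp1 depends on how a count of 0 is treated.

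**Figure D3:**
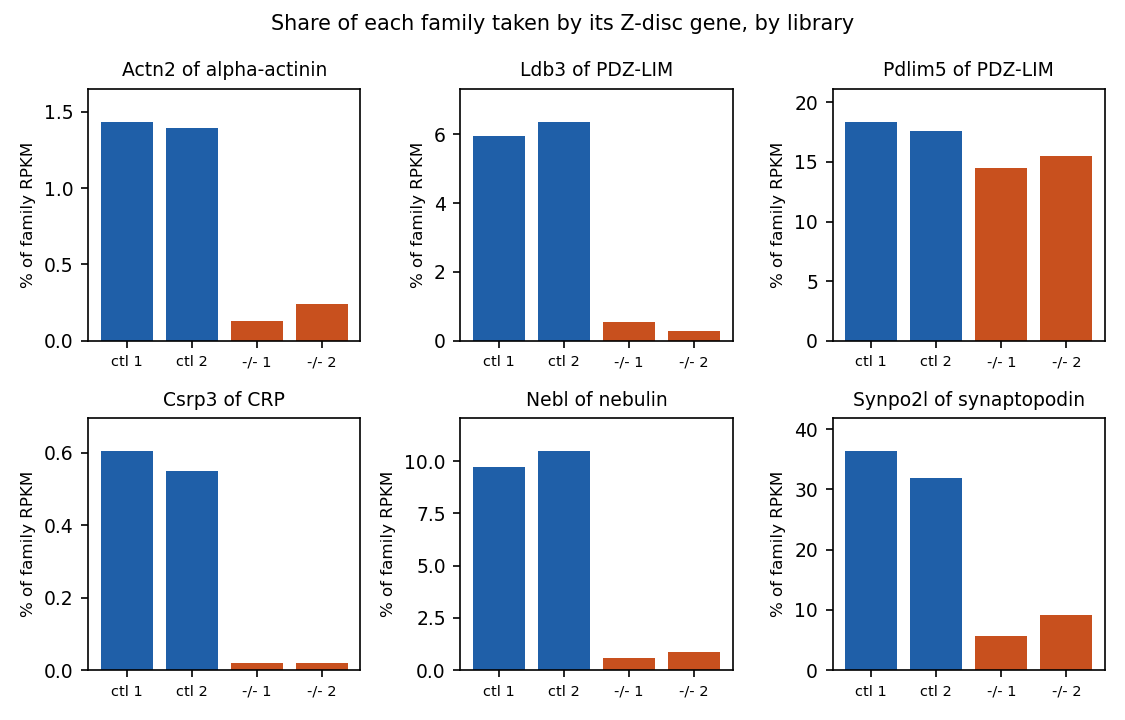
Share of a family's summed RPKM taken by its Z-disc gene in each library (ctl, control; -/-, Isl1-/-), in bars that start at 0 on axes of different height. Actn2, Ldb3, Csrp3, Nebl and Synpo2l take a smaller share in both Isl1-/- libraries than in both controls by a wide margin, while Pdlim5 goes from 18.4% and 17.6% to 14.5% and 15.5%.

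A wider list of 41 other genes of the Z-disc, its LIM and PDZ-LIM proteins and its attachment sites was examined in the same way. Of these, 34 were tested, 3 fell in Isl1-/- CPCs and none rose, against 1.94% of all tested genes called lower. Their median log2 fold change was -0.17. The genes that fell were Sorbs2, which encodes ArgBP2, an SH3 adaptor of Z-discs and cell contacts, Smpx, a small muscle protein, and Synpo2. Sorbs2 went from 26.0 and 25.3 CPM to 0.615 and 0.347 CPM (log2 -5.68 ± 0.244, edgeR adjusted p 0.00229). Smpx was counted 18 and 22 times in control, then 1 and 0 times in Isl1-/- CPCs (edgeR adjusted p 0.0321), a ratio of 54.7 with an exact counting interval of 9.27 to 2213. All 3 passed the filter in control only, and none of them was called when 10 counts were required in every library, because they were then not tested. Leaving out either control library kept Sorbs2 and lost the other 2.

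The most abundant genes of the wider list were Actn1, Flnc, Csrp1 and Actn4. Flnc, the filamin of striated muscle, was at 657 and 666 CPM in control and 752 and 507 CPM in Isl1-/- CPCs, so the Isl1-/- libraries lay on either side of control (log2 fold change -0.072, 95% interval -0.55 to 0.40). The next 3 genes were picked out after their values were seen, as those with the largest negative fold changes that missed the threshold. Trim55, the ubiquitin ligase MuRF2, was at 19.0 and 20.9 CPM in control and 3.46 and 0.260 CPM in Isl1-/- CPCs (edgeR adjusted p 0.0834). Des, the muscle intermediate filament desmin that links Z-discs sideways, was at 116 and 121 CPM in control and 59.5 and 26.9 CPM in Isl1-/- CPCs (edgeR adjusted p 0.103). Nexn, an actin-binding protein of the Z-disc, was at 174 and 167 CPM and at 99.4 and 43.7 CPM (edgeR adjusted p 0.138). In each of these 3 genes Isl1-/- replicate 2 was the lowest library.

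**Figure D4:**
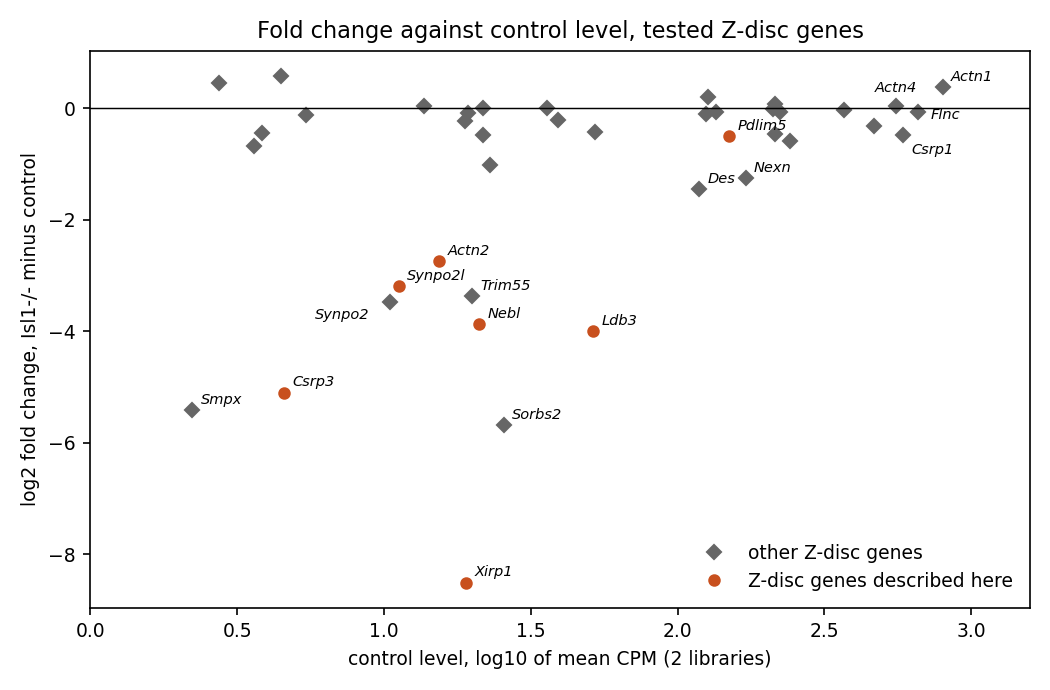
Log2 fold change, Isl1-/- minus control, against the log10 of the mean control CPM, for the 7 tested Z-disc genes (circles) and the 34 tested genes of the wider list (diamonds). Among genes with a control mean over 100 CPM, Pdlim5, Actn1, Actn4, Flnc and Csrp1 lie between -0.50 and 0.38. Palld, Nexn and Des, also over 100 CPM, lie lower, at -0.59, -1.25 and -1.45. No gene over 100 CPM reaches -2, whereas Ldb3 at 51.5 CPM lies at -3.99.

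Markers of the cell types that the sorted cells could hold were measured beside the Z-disc genes. Of 11 cardiomyocyte markers, 10 were tested and all 10 fell. Their summed level was 2124 and 2203 CPM in control and 181 and 126 CPM in Isl1-/- CPCs. In bulk RNA, fewer cells of the cardiomyocyte type and less RNA per cell cannot be told apart, and this holds for each decrease given above. The part of cardiomyocyte number in the Z-disc results was not tested. Skeletal muscle is the other tissue that makes these proteins. Of its regulators, Myod1 and Myf5 had 0 counts in all libraries, Myog and Myf6 at most 2 and Pax3 at most 3, while Pax7 was counted 4 and 0 times in control, against 1 and 7 times in Isl1-/- CPCs. The sum of the 9 skeletal muscle markers, most of it Tnnt3, was 43.5 and 39.5 CPM in control and 50.04 and 46.5 CPM in Isl1-/- CPCs, with none called by edgeR or DESeq2. Of 6 smooth muscle markers none was called by edgeR or DESeq2, and their sum was 2528 and 2534 CPM in control and 2177 and 746 CPM in Isl1-/- CPCs. Of 5 fibroblast markers edgeR called none and DESeq2 called Pdgfra lower (adjusted p 0.00149), with sums of 2137 and 2071 CPM in control and 1309 and 557 CPM in Isl1-/- CPCs. Of 5 endothelial markers edgeR called none and DESeq2 called 2 lower, Tek (adjusted p 0.00603) and Emcn, counted 15 and 10 times in control and 0 times in both Isl1-/- libraries (adjusted p 0.0143). Their sum was 363 and 366 CPM in control and 326 and 367 CPM in Isl1-/- CPCs. Of 6 blood markers edgeR called Runx1 higher and DESeq2 also called Tal1 higher (adjusted p 0.00311), whereas the embryonic globins Hba-x and Hbb-bh1 had log2 fold changes of -2.13 and -1.51 that passed neither test. None of 5 endoderm and 4 pluripotency markers was called by either tool. Smooth muscle and fibroblast sums were higher in Isl1-/- replicate 1 than in replicate 2, as were Ldb3, Csrp3, Synpo2l, Pdlim5 and the single count of Xirp1, while Actn2 and Nebl were higher in replicate 2; the part of these cells in the Z-disc results was not tested.

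Among the genes whose profile over the 4 libraries was nearest to the mean of the 7 tested Z-disc genes were Rbm24, Slc24a2, Sfrp1 and Tbx5. The distance was Euclidean on centred log2(CPM + 1) and ranged from 0.0591 for Rbm24 to 0.215 for Tbx5. Rbm24, a splicing regulator of heart and skeletal muscle, was at 82.4 and 79.0 CPM in control and 12.4 and 11.5 CPM in Isl1-/- CPCs. Tbx5, a T-box factor of the first heart field, was at 12.9 and 13.5 CPM and at 0.999 and 1.13 CPM. With 4 libraries in 2 groups this likeness says little more than that the genes fell by a similar amount on the log2(CPM + 1) scale. Centring removes the level, and Slc24a2 was at only 8.06 and 7.44 CPM in control. The fitted log2 fold changes also differed, at -4.52 for Slc24a2 and -2.75 for Rbm24.

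Because most of the Z-disc genes fell together, the 250 bases before their RefSeq transcription starts were searched for binding motifs of muscle and cardiac factors on both strands. The RefSeq table (GRCm38.p6) held 15 such windows for 8 of the 10 genes, each of which matched the NCBIM37 assembly at 1 place, and Tcap and Xirp1 were not in it. A MEF2 site was found in 4 of the 15 windows (26.7%), of Synpo2l, Myoz2 and Xirp2, and in 2.92% of all 32851 windows. The CArG box of SRF was found in 3 windows (20%), of Ldb3 and Nebl, and in 1.47% of all windows, and the 2 Ldb3 windows overlap and share the site. The ISL1 letters CTAATG or CTAATT occurred in 4 windows (26.7%), of Nebl, Pdlim5 and Synpo2l, and in 13.2% of all windows. In Synpo2l they lie inside the MEF2 site. The Nebl windows with the CArG box (chr2:17384484-17384733) and the ISL1 letters (chr2:17447758-17448007) lie inside the gene. The Nebl window at the gene's 5′ end (chr2:17652762-17653011) holds no MEF2, CArG or ISL1 match. Which of these windows belongs to the Nebl entry counted was not determined. Windows inside the gene were also among those with a MEF2 site for Synpo2l and with ISL1 letters for Pdlim5. E-boxes (CANNTG) occurred in 66.7% of the Z-disc windows and 66.2% of all windows, and the NKX2-5 letters CACTTG or AAGTGG in none of the 15 and 21.6% of all. GATA letters (AGATAA or TGATAA) and the MCAT letters CATTCC were found for Nebl alone, and TATAAA for Pdlim5 alone. Matches of letters are no evidence of binding, and the windows with a MEF2 site belong to a gene that fell and to 2 genes without reads.

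From these windows 5 are printed with their NCBIM37 positions, chosen to set genes that fell (Ldb3, Synpo2l) beside genes with no reads (Myoz2, Xirp2) and the broadly made Pdlim5. Each is 5′ to 3′ on the gene's strand and ends 1 base before the start. Capitals mark the CArG box in Ldb3 (chr14:35401868-35402117, minus strand), the MEF2 site in Synpo2l (chr14:21487577-21487826, minus strand), Myoz2 (chr3:122737906-122738155, minus strand) and Xirp2 (chr2:67283809-67284058, plus strand), and the ISL1 letters on the opposite strand in Pdlim5 (chr3:142058661-142058910, minus strand).
Ldb3: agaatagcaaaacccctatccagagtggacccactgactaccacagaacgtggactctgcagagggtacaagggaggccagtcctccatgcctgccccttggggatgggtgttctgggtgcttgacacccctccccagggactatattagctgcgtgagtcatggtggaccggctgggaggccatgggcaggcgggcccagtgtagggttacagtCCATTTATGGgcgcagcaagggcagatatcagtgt
Synpo2l: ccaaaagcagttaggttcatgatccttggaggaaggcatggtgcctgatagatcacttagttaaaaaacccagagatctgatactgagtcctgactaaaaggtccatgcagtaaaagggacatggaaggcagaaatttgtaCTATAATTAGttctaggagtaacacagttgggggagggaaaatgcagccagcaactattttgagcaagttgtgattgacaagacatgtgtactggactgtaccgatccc
Myoz2: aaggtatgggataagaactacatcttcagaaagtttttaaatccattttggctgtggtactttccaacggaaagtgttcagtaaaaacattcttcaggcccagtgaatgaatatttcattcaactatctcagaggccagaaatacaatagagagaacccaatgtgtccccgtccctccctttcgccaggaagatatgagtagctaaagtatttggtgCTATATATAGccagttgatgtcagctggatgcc
Xirp2: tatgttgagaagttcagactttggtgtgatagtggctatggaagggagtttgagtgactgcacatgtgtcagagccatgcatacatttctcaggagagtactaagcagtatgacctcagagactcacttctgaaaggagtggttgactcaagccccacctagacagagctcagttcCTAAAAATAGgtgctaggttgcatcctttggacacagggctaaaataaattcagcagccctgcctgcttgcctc
Pdlim5: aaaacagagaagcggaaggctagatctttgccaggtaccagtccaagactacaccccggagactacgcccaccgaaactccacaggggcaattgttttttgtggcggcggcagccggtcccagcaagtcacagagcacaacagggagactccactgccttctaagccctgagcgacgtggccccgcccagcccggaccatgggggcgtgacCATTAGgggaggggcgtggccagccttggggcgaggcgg

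The MEF2 site ends 24 bases before the start in Myoz2, 65 in Xirp2 and 100 in Synpo2l, and the CArG box of Ldb3 ends 26 bases before it. The transcripts behind these windows ranged from 0 counts for Myoz2 and Xirp2 to 483 counts in a control library for Ldb3.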

How the data were processed

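Sample titles gave the groups and replicate numbers. Per the methods, the authors mapped reads to mm9 with STAR and counted exonic reads per RefSeq transcript with HOMER on both strands without adjustment; tool versions are not given in the sources used here. The authors deposited counts as whole reads for each transcript entry. The authors' deposited RPKM, and their DESeq2 columns (log2 fold changes, p-values, a Wald score and a mean signal), were not used. The number of per-sample columns left unmatched was 0. RPKM values here are CPM divided by transcript length. The series' design text speaks of a knockdown; titles and methods, which give a knockout, were followed.

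Per symbol, the entry with the most reads over all libraries was used. Genes were tested with edgeR 4.0.16 in R 4.3.3 (quasi-likelihood F test, TMM, filterByExpr with a minimum count of 10, no covariate, two-sided), p was adjusted by Benjamini-Hochberg over the 12715 genes tested, and 0.05 was the threshold. Each SE came from the coefficient and its F statistic. DESeq2 1.42.0 was an alternative. Exact intervals of count ratios are Clopper-Pearson at 95% and, like the floor of 3 counts, cover counting error only. Positions are from GENCODE vM1 on NCBIM37, the assembly of mm9. Tables and intervals were made in Python 3.11.15 with scipy 1.17.1.

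The genes, lists and tests were chosen with earlier results of these data known. Named were the 10 genes, Isl1, Nkx2-5, the family members, called genes of the wider list by size, its 4 most abundant genes and the 5 nearest profiles, of which 1 is not reported here. The control libraries were kept as 2 samples because they differed by more than counting error (chi-square per degree of freedom 1.14, p = 9.0e-26, 12530 genes). Separate libraries of the same clone could also differ by more than counting error. This check therefore cannot show that the control libraries came from separate clones.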

Additional observations from a re-analysis of the deposited data

How the results depend on the processing

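With DESeq2's size factors in the edgeR fit, the longest entry per symbol or all transcript entries, the same 6 Z-disc genes were called, and each tested Z-disc gene kept its direction in every alternative that tested it. The study's criteria in DESeq2 added Tcap (7 called). Requiring 10 counts in every library left 5 Z-disc genes tested and 4 called, with a median of -3.19, since Csrp3 and Xirp1 were then not tested. The wider list had 8 genes called with the study's criteria and 0 with 10 counts in every library. Of these 8, Smpx, Sorbs2, Synpo2 and Trim55 were not tested in that edgeR fit. Cryab, Des, Nexn and Palld were tested in it and not called. Over all genes 312 were called, 602 with DESeq2, 992 with the study's criteria, 492 without a filter and 217 with 10 counts in every library.

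With the replicate number as a block the same 6 Z-disc genes were called, and 6 of the wider list, where Des, Nexn and Trim55 were added to Smpx, Sorbs2 and Synpo2. Libraries with the same number were not alike in their deviations from the group means (r = 0.018 over 10576 genes), and the number was not treated as a pairing.

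Leaving out 1 library gave 28 to 6355 calls over all genes, 2 to 8 for the Z-disc genes and 1 to 24 for the wider list. The medians ranged from -3.90 to -3.66 for the Z-disc genes and from -0.42 to -0.074 for the wider list. The low counts are those without a control library, the high ones those without an Isl1-/- library, where the spread comes from the close control pair alone and the lone library is assumed to vary like it. Pdlim5 passed only in these last fits, at -0.69 without Isl1-/- replicate 1 and -0.33 without replicate 2. Without control replicate 1 or 2, Actn2 (-2.73 and -2.75), Ldb3 (-4.04 and -3.96), Csrp3 (-5.04 and -5.16) and Synpo2l no longer passed. Depth limits Tcap, Csrp3 and Xirp1, which had 1 to 3 counts in the Isl1-/- group, and Myoz2 and Xirp2, which had none.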

Other observations

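Several genes of the wider list that act in many cell types are given here, chosen after their values were seen. Capza1, Capza2 and Capzb are subunits of the protein that caps actin filaments at the Z-disc and elsewhere, and their log2 fold changes were -0.22 (95% interval -0.64 to 0.21; its exons overlap those of St7l), -0.0054 (-0.17 to 0.16) and -0.021 (-0.35 to 0.31). Capza2 was at 217 and 207 CPM in control and at 209 and 214 CPM in Isl1-/- CPCs. Ppp3ca and Ppp3cb, the catalytic calcineurin subunits that Z-disc proteins of the myozenin family bind, had log2 fold changes of -0.097 (SE 0.0619) and 0.21 (SE 0.0856). Bag3, a co-chaperone of filamin turnover, was at 133 and 137 CPM in control and 151 and 108 CPM in Isl1-/- CPCs. None of these 6 genes passed edgeR's test, with adjusted p of 0.227 to 0.972.

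Several genes of the mature Z-disc were near or below the floor of 3 counts in control as well. Myot, Mypn, Nrap, Myoz1, Myoz3 and Ankrd2 had between 0 and 5 counts in each library, and Lmcd1 between 0 and 7. Like Myoz2 and Xirp2, they were too low for edgeR's test, and for them a difference was not detectable at this depth.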
